A study of Mus musculus with 2 samples.

Results

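Bax, Bid, Bcl2l1, Bcl2l11, Diablo, Apaf1, Casp9, Trp53 and Mdm2, genes of the mitochondrial route of apoptosis and of the p53 pathway, were described across germ and somatic cells of the adult mouse testis. They are the 9 rows of the count table with these symbols, out of 20476 genes. Total testicular cells were profiled by droplet-based 3′ single-cell RNA sequencing in miR-202-/- mice, which lack the microRNA miR-202, and in wild-type mice, with 1 library per genotype. All mice were adult, with the strain given as C57BL/CJ;ICR, and debris had been removed by cell sorting. How many animals gave each library, and how the allele was made, are not given in the sources used here. The deposited table joins the 2 libraries. The suffix of a barcode, 1 or 2, is called its mark here, and nothing in the labels or files says which genotype it stands for. No value was therefore assigned to miR-202-/- or wild-type mice, no genotype comparison was made, and no p-value was computed. Values are set out by mark. Marks do not serve as replicates, and every interval covers counting error only.

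In the mitochondrial route of apoptosis, BH3-only proteins such as BID and BIM (the product of Bcl2l11) relieve the block that survival proteins such as BCL-XL (the product of Bcl2l1) put on the pore-forming proteins BAX and BAK. Pores in the outer mitochondrial membrane then release cytochrome c, which joins APAF1 to activate caspase-9, and DIABLO, which counteracts the inhibitors of caspases. p53, encoded by Trp53, raises transcription of Bax and of Mdm2, whose product marks p53 for degradation. In the mouse testis many germ cells die as a normal part of spermatogenesis, and males without Bax are sterile.

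Bax and Mdm2 are textbook targets of p53, so the members' promoters were searched for the p53 half-site, on both strands of the 250 bases before each RefSeq start (build GRCm38.p6). All 9 members had an entry in the promoter table, and Bax, Trp53 and Mdm2 held a match. Of all 27025 gene symbols in the table, 2216 (8.2%) held a match in any window, as did 7.13% of all 32851 windows. The windows with a match are shown 5′ to 3′ in the direction of transcription, with the match in capitals: chr7:45466899-45467148 on the reverse strand for Bax, chr11:69580109-69580358 on the forward strand for Trp53 and chr10:117710759-117711008 on the reverse strand for Mdm2. A match describes the letters only, and reads from 3′ ends do not show which start was used.
Bax: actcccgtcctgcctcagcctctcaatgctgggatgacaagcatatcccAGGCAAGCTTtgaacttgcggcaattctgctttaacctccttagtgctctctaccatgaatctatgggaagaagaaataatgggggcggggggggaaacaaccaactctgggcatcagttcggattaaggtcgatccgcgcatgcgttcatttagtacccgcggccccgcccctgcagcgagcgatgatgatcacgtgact
Trp53: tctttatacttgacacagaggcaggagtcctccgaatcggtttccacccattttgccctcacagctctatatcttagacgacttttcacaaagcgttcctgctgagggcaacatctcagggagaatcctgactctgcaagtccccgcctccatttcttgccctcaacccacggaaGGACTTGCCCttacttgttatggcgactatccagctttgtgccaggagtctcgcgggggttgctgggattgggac
Mdm2: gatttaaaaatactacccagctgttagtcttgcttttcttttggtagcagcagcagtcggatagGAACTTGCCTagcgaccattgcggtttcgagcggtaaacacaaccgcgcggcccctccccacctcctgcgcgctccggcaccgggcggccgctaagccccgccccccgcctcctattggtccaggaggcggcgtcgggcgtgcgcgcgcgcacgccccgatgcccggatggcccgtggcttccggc

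The microRNA removed in the knockout lies on chromosome 7, and its 2 mature forms are given as in RefSeq (GRCm38.p6), with the seed (bases 2 to 8) in capitals.
miR-202-3p: aGAGGUAUagcgcaugggaaga
miR-202-5p: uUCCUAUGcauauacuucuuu
The letters ATACCTC, which pair with the seed of miR-202-3p, were in the longest annotated 3′ untranslated region of 0 of the 9 members and of 6.0% of 15803 genes. The letters CATAGGA, which pair with the seed of miR-202-5p, occurred 1 time in Bcl2l11, at base 1223 of 4218, and 1 time in Diablo, at base 1879 of 2098. They occurred in 7.72% of all 15803 genes, whose median length of this region was 1020 bases. The regions of Bcl2l11 and Diablo are longer than that and so have more room for a match. All of these are matches of letters in GENCODE M21 transcripts, and no response to miR-202 could be read from the table.

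Mark 1 held 12935 barcodes with a median of 6061 unique molecular identifiers (UMIs), and mark 2 held 15310 with a median of 5509. The same barcode sequence occurred under both marks 73 times. Barcodes were put into classes by gates on marker genes, none of which is a member. The germ classes, with their numbers under mark 1 and mark 2, were spermatogonia (109 and 118), leptotene-zygotene spermatocytes (110 and 104), pachytene spermatocytes (423 and 418), diplotene and dividing spermatocytes (459 and 514), round spermatids (995 and 1261) and elongating spermatids (2040 and 2293). The somatic classes were Sertoli-like (520 and 511), Leydig-like (70 and 70), macrophage-like (39 and 49), T- or NK-like (48 and 35), stromal- or peritubular-like (39 and 28) and erythroid-like (27 and 39) barcodes. A further 5880 and 7676 barcodes had under 6000 UMIs and passed no gate, and their level served as the background of free RNA. Germ gates asked for 8000 UMIs, so shallow germ cells can be among these barcodes. Whether they hold only free RNA was not tested. Each reading of a level as background, and each subtraction of free RNA, rests on that assumption. Levels are UMIs per 1000000 UMIs of the class (CPM). By the UMIs of Prm1, Prm2, Tnp1 and Tnp2, free RNA made up to 42.2% and 40.9% of UMIs in spermatogonia, 52.9% and 62.4% in leptotene-zygotene spermatocytes, 13.4% and 16.8% in pachytene spermatocytes and 29.1% and 25.5% in round spermatids under mark 1 and mark 2. In round spermatids this is an upper limit, since they can make these RNAs themselves. In the Sertoli-like class the estimate reached 100%, and no free RNA was subtracted there. It was 66.2% and 83.6% in Leydig-like, 73.9% and 77.9% in macrophage-like, 81.2% and 75.3% in T- or NK-like, 71% and 60.6% in stromal- or peritubular-like and 75% and 86.8% in erythroid-like barcodes.

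Bax, whose product forms the pore in the outer mitochondrial membrane, was highest in spermatogonia. It was lower in every later germ class. Under mark 1, Bax was at 215 CPM in spermatogonia, 58.8 in leptotene-zygotene, 6.79 in pachytene and 6.96 in diplotene and dividing spermatocytes, 0.956 in round spermatids and 0.932 in elongating spermatids. Under mark 2, Bax was at 215, 43.1, 10.8, 4.04, 0.79 and 0.962 CPM in the same order. Both spermatid classes were below the 3.11 and 2.64 CPM of the ungated low-UMI barcodes under mark 1 and mark 2. Bax in leptotene-zygotene spermatocytes was 0.273 times (0.214 to 0.346) and 0.20 times (0.154 to 0.257) its level in spermatogonia, with 95% intervals in parentheses. In pachytene spermatocytes it was 0.115 times (0.087 to 0.153) and 0.25 times (0.189 to 0.333) the leptotene-zygotene level. A Bax UMI was found in 88.1 and 89% of spermatogonia, against 1.31 and 1.05% of ungated low-UMI barcodes, at median depths of 13500 and 11676.5 UMIs against 4535 and 4153 UMIs. Thinned to 3500 UMIs per barcode, the shares were 45 and 47.5% of spermatogonia, against 0.918 and 0.847%. The gene lies on the reverse strand of chromosome 7 (45461697 to 45466898) in GRCm38.

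Among somatic classes, Bax was above the ungated low-UMI level under both marks in the Leydig-like class (60.4 and 43.3 CPM), the T- or NK-like class (59.9 and 23.9 CPM), the macrophage-like class (40.3 and 32.7 CPM) and the Sertoli-like class (18.7 and 9.65 CPM). Spermatogonia stood apart from every other class. From the Leydig-like class down to the Sertoli-like class, each class overlapped its neighbour in the order of levels under both marks. Within spermatogonia, Bax was at 227 and 238 CPM in barcodes gated as differentiating, against 142 and 118 CPM in the 15 and 23 gated as undifferentiated.

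Bid encodes the BH3-only protein that caspase-8 cleaves, which links death receptors to mitochondria. Under mark 1, Bid was at 25.9 CPM in spermatogonia, 6.68 in leptotene-zygotene, 1.27 in pachytene and 0.71 in diplotene and dividing spermatocytes, 0.0637 in round spermatids and 0.233 in elongating spermatids. Under mark 2, Bid was at 23.7, 4.42, 3.05, 0.0673, 0.136 and 0.17 CPM in the same order. Like Bax, it was highest at the start of the germ line. Bid in leptotene-zygotene spermatocytes was 0.259 times (0.116 to 0.524) and 0.186 times (0.0748 to 0.406) its level in spermatogonia. From pachytene spermatocytes on, its intervals overlapped those of the ungated low-UMI barcodes, which held 0.843 and 0.361 CPM, under at least 1 mark. The 3′ end of Bid overlaps Bcl2l13 on the opposite strand, and whether reads were counted by strand was not stated in the sources used here, so reads of the pair could be mixed.

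Bcl2l1, which encodes the survival protein BCL-XL and by splicing also a short form that promotes death, was highest in pachytene spermatocytes. Under mark 1, Bcl2l1 was at 41.2 CPM in spermatogonia, 58.8 in leptotene-zygotene, 94.3 in pachytene and 59.3 in diplotene and dividing spermatocytes, 27.7 in round spermatids and 8.3 in elongating spermatids. Under mark 2, Bcl2l1 was at 44.9, 50.8, 94.7, 48.2, 25.9 and 8.0 CPM in the same order. In pachytene spermatocytes it was 1.6 times (1.29 to 2.01) and 1.86 times (1.51 to 2.33) its leptotene-zygotene level. With free RNA subtracted, the levels were 102 and 106 CPM in pachytene spermatocytes, against 70.0 and 62.4 CPM in leptotene-zygotene spermatocytes, and the difference no longer reached 1.5-fold under both marks. In round spermatids it was 0.294 times (0.271 to 0.319) and 0.273 times (0.251 to 0.297) the pachytene level. In spermatogonia and in the 6 somatic classes, Bcl2l1 was not apart under both marks from the 44.1 and 38.5 CPM of ungated low-UMI barcodes. Tags at the 3′ end do not separate the splice forms.

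Bcl2l11, which encodes the BH3-only protein BIM, was highest in elongating spermatids and low in pachytene and in diplotene and dividing spermatocytes, which overlapped under both marks. Under mark 1, Bcl2l11 was at 56.6 CPM in spermatogonia, 32.8 in leptotene-zygotene, 10.8 in pachytene and 13.8 in diplotene and dividing spermatocytes, 56.5 in round spermatids and 140.3 in elongating spermatids. Under mark 2, Bcl2l11 was at 52, 33.7, 11, 13.6, 40.2 and 132 CPM in the same order. Elongating spermatids were the only one of the 12 classes above the ungated low-UMI level, 76.9 and 72.7 CPM, under both marks. Bcl2l11 in round spermatids was 5.25 times (4.53 to 6.12) and 3.66 times (3.1 to 4.35) its pachytene level. In elongating spermatids it was 2.48 times (2.35 to 2.62) and 3.29 times (3.1 to 3.49) the level in round spermatids. With the stricter marker gate, which left 16 and 18 elongating and 13 and 18 round barcodes, the direction turned, with log2 ratios of -1.36 and -1.09. After thinning, a Bcl2l11 UMI was found in 31.2 and 32.9% of elongating barcodes (71 and 71% before thinning), against 22.9 and 21.6% of ungated low-UMI barcodes. With free RNA subtracted, Bcl2l11 was left at 0 and 0 CPM in leptotene-zygotene, 0.529 and 0 in pachytene and 0 and 0 in diplotene and dividing spermatocytes, so its levels there are read as background. Spermatogonia kept 39 and 35.4 CPM and round spermatids 47.6 and 28.9 CPM.

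The stricter gate asked for a 2 times higher level before a marker counted as up. It left 16 and 18 elongating and 13 and 18 round barcodes. There the Bcl2l11 difference turned round, with log2 ratios of -1.36 and -1.09 for elongating over round spermatids. The elongating class was also cut by UMIs into 3 equal parts under each mark, a division chosen after its values were seen. Bcl2l11 was at 74.6 and 84.4 CPM in the RNA-poor part, 115 and 109 CPM in the middle part and 177 and 166 CPM in the RNA-rich part. Mdm2 went the other way, at 40.5 and 37.3, 26.9 and 26.6, and 18 and 17.4 CPM. Diablo also had its highest level in the RNA-poor part, with 102 and 106, 74 and 79.1, and 40.7 and 51 CPM. Median depths were 9411 and 9464 UMIs in the RNA-poor part and 23477 and 20435.5 UMIs in the RNA-rich part. The RNA-poor values of these 3 genes lie nearer to those of the ungated low-UMI barcodes, and the part of free RNA in the gradients was not tested.

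**Figure D1:**
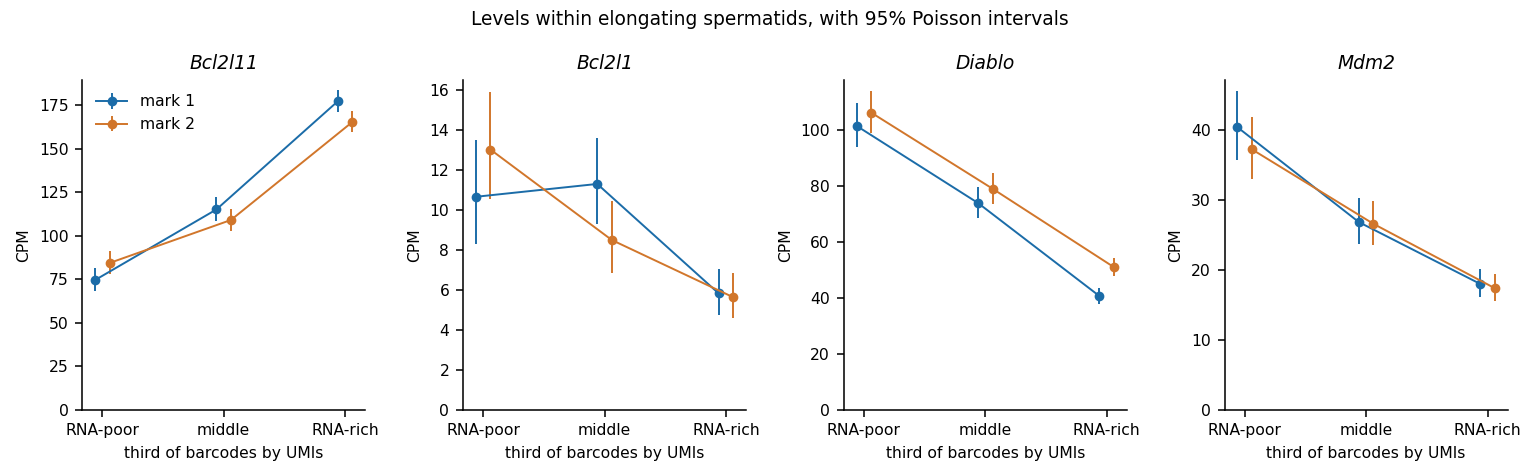
Levels of Bcl2l11, Bcl2l1, Diablo and Mdm2 in CPM (vertical axes) in elongating spermatid barcodes cut into 3 equal parts by UMIs (horizontal axes) under each mark, with bars for 95% Poisson intervals. Bcl2l11 is higher in the RNA-rich part, at 177 and 166 CPM, than in the RNA-poor part, at 74.6 and 84.4 CPM, while Diablo and Mdm2 are lower there.

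Diablo, whose product leaves mitochondria and binds caspase inhibitors, peaked in pachytene spermatocytes. Under mark 1, Diablo was at 222 CPM in spermatogonia, 479 in leptotene-zygotene, 744 in pachytene and 456 in diplotene and dividing spermatocytes, 59 in round spermatids and 61.7 in elongating spermatids. Under mark 2, Diablo was at 236, 603, 853, 431, 71.6 and 70.8 CPM in the same order. In leptotene-zygotene spermatocytes it was 2.16 times (1.9 to 2.46) and 2.55 times (2.27 to 2.88) its level in spermatogonia. In round spermatids it was 0.0792 times (0.0754 to 0.0832) and 0.0839 times (0.0804 to 0.0876) the pachytene level. The 3 spermatocyte classes were above the 277 and 317 CPM of ungated low-UMI barcodes, and spermatogonia and spermatids were below it. With free RNA subtracted, 0 and 0 CPM were left in round spermatids, against 814 and 958 CPM in pachytene spermatocytes. Leptotene-zygotene spermatocytes then stood at 657 and 945 CPM, so under mark 2 they were close to the pachytene level. In the somatic classes Diablo ranged from 183 to 317 CPM and was above the ungated low-UMI level in none of the 6 under both marks, so it is read there as background. The gene overlaps B3gnt4 on the opposite strand, which held 9077 UMIs in the table, and 2 gene models that are not rows of it, AC157931.1 across its 3′ end and Gm49027 on its own strand. Its count is uncertain to that extent.

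Apaf1 and Casp9 encode the scaffold and the protease of the apoptosome. Under mark 1, Apaf1 was at 24.6 CPM in spermatogonia, 14 in leptotene-zygotene, 0.772 in pachytene and 0.639 in diplotene and dividing spermatocytes, 0.0637 in round spermatids and 0.0291 in elongating spermatids. Under mark 2, Apaf1 was at 21.8, 4.97, 0.921, 0.471, 0.163 and 0.0283 CPM in the same order. The UMIs behind the levels were 40 and 34 in spermatogonia, 21 and 9 in leptotene-zygotene spermatocytes and 14 and 13 in pachytene spermatocytes under mark 1 and mark 2. In pachytene spermatocytes Apaf1 was 0.055 times (0.0259 to 0.113) and 0.185 times (0.0733 to 0.491) its leptotene-zygotene level. From pachytene spermatocytes on, no germ class was apart under both marks from ungated low-UMI barcodes, which held 0.256 and 0.361 CPM of Apaf1. Within spermatogonia, barcodes gated as differentiating held 27 and 24.7 CPM, against 9.14 and 9.85 CPM on 2 and 3 UMIs in those gated as undifferentiated.

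Casp9 had few UMIs in most classes. Under mark 1, Casp9 was at 12.3 CPM in spermatogonia, 5.35 in leptotene-zygotene, 5.46 in pachytene and 2.13 in diplotene and dividing spermatocytes, 0.605 in round spermatids and 0.786 in elongating spermatids. Under mark 2, Casp9 was at 9.63, 4.97, 5.88, 1.68, 0.545 and 0.453 CPM in the same order. Spermatogonia held 20 and 15 UMIs and pachytene spermatocytes 99 and 83, and both were above the 2.71 and 2.67 CPM of ungated low-UMI barcodes. Casp9 in leptotene-zygotene spermatocytes, on 8 and 9 UMIs, was 0.434 times (0.166 to 1.03) and 0.516 times (0.199 to 1.26) its level in spermatogonia. Both intervals include equal levels. In round spermatids Casp9 was 0.111 times (0.064 to 0.182) and 0.0926 times (0.0538 to 0.152) the pachytene level. Its 3′ end overlaps Cela2a and Ctrc on the opposite strand, which held 188 and 72 UMIs in the table.

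Trp53 encodes p53, the transcription factor that responds to DNA damage. Under mark 1, Trp53 was at 40.0 CPM in spermatogonia, 10.7 in leptotene-zygotene, 9.32 in pachytene and 8.02 in diplotene and dividing spermatocytes, 1.75 in round spermatids and 0.757 in elongating spermatids. Under mark 2, Trp53 was at 52, 9.39, 12.7, 7.74, 2.4 and 0.622 CPM in the same order. In leptotene-zygotene spermatocytes it was 0.267 times (0.144 to 0.467) and 0.181 times (0.10 to 0.307) its level in spermatogonia. Leptotene-zygotene and pachytene spermatocytes overlapped under both marks, and pachytene and diplotene and dividing spermatocytes under mark 1 but not under mark 2. In round spermatids it was 0.188 times (0.136 to 0.256) and 0.189 times (0.145 to 0.245) the pachytene level. Trp53 was above the 3.37 and 3.0 CPM of ungated low-UMI barcodes in stromal- or peritubular-like barcodes (28.8 and 34.4 CPM, on 7 and 5 UMIs), in Leydig-like barcodes (13.6 and 28.9 CPM) and in Sertoli-like barcodes (8.16 and 14.5 CPM).

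Mdm2, which encodes the ubiquitin ligase of p53, was highest in round spermatids and lowest in elongating spermatids. Under mark 1, Mdm2 was at 88 CPM in spermatogonia, 134 in leptotene-zygotene, 148 in pachytene and 119 in diplotene and dividing spermatocytes, 189 in round spermatids and 24.8 in elongating spermatids. Under mark 2, Mdm2 was at 95.6, 123, 152, 115, 175 and 24.2 CPM in the same order. In elongating spermatids it was 0.131 times (0.122 to 0.141) and 0.139 times (0.129 to 0.149) its level in round spermatids. In round spermatids it was 1.28 times (1.22 to 1.34) and 1.15 times (1.09 to 1.21) the pachytene level, below the 1.5-fold size asked for. Only round spermatids and pachytene spermatocytes were above the 110.2 and 109 CPM of ungated low-UMI barcodes under both marks. After thinning, an Mdm2 UMI was found in 45.8 and 44.1% of round spermatid barcodes (96.9 and 96.3% before thinning), against 31.8 and 32.1% of ungated low-UMI barcodes.

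**Figure D2:**
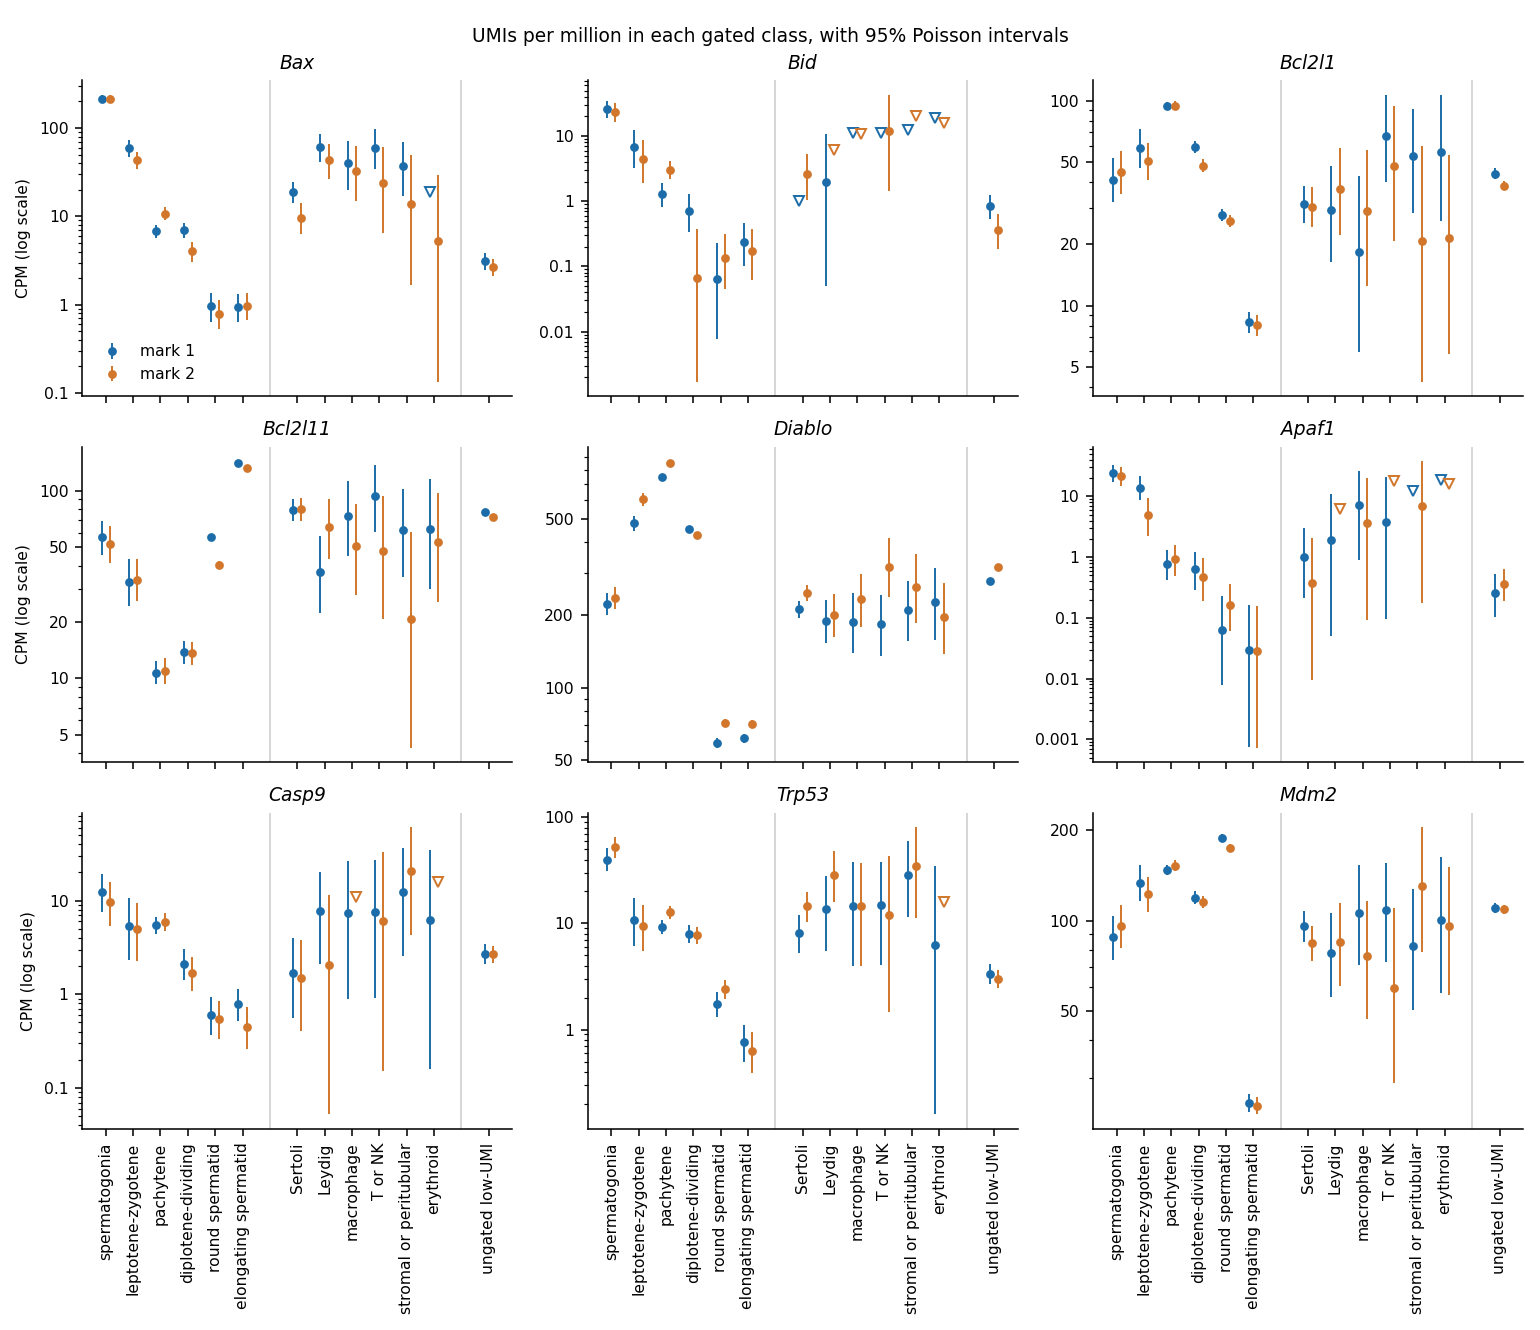
Level of each gene in CPM (vertical axes, log scale) in 6 germ classes in order of differentiation, 6 somatic classes and the ungated low-UMI barcodes (horizontal axes) under each mark, with bars for 95% Poisson intervals and open triangles for the level of 3 UMIs where none was counted. Among germ classes, Bax, Bid, Apaf1, Casp9 and Trp53 are highest in spermatogonia, Bcl2l1 and Diablo in pachytene spermatocytes, Mdm2 in round spermatids and Bcl2l11 in elongating spermatids. For Casp9 the bars of spermatogonia and leptotene-zygotene spermatocytes overlap under both marks.

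Ratios between UMIs of a pair of genes in the same barcodes do not depend on the scaling. Their size depends on how well each 3′ end is captured, so they are compared only between classes, and free RNA enters both terms. Bax UMIs per Bcl2l1 UMI came to 5.22 (4.01 to 6.89) and 4.79 (3.69 to 6.28) in spermatogonia, 1.0 and 0.848 in leptotene-zygotene spermatocytes, 0.072 and 0.114 in pachytene spermatocytes and 0.0345 and 0.0305 in round spermatids. Elongating spermatids were higher again, at 0.112 (0.0754 to 0.162) and 0.12 (0.0816 to 0.172). Bax and Bcl2l1 were below ungated low-UMI barcodes in both spermatid classes under both marks. The part of free RNA in their ratios there was not tested, so this rise is not read as one of the cells. Bcl2l11 UMIs per Bcl2l1 UMI came to 0.114 (0.0979 to 0.132) and 0.116 (0.0976 to 0.137) in pachytene spermatocytes and 16.9 (15 to 19.1) and 16.5 (14.6 to 18.7) in elongating spermatids. Bcl2l11 in pachytene spermatocytes is read as background, so that ratio is not one of the cells. Bcl2l1 and Mdm2 in spermatogonia, and Mdm2 in leptotene-zygotene spermatocytes, were not apart from ungated low-UMI barcodes under both marks. The ratios that hold these terms are limited by this. Mdm2 UMIs per Trp53 UMI were 2.2 (1.63 to 3.0) and 1.84 (1.39 to 2.44) in spermatogonia, 12.5 and 13.1 in leptotene-zygotene spermatocytes and 108 (82.6 to 143) and 73 (59.1 to 91.1) in round spermatids. Elongating spermatids were lower than round ones, at 32.7 (22.2 to 50.4) and 39 (25.6 to 62.5). Mdm2 and Trp53 in elongating spermatids were below ungated low-UMI barcodes under both marks. Trp53 in round spermatids was not apart from them under both marks. The part of free RNA in the ratios of both spermatid classes was not tested, so their difference is not read as one of the cells.

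**Figure D3:**
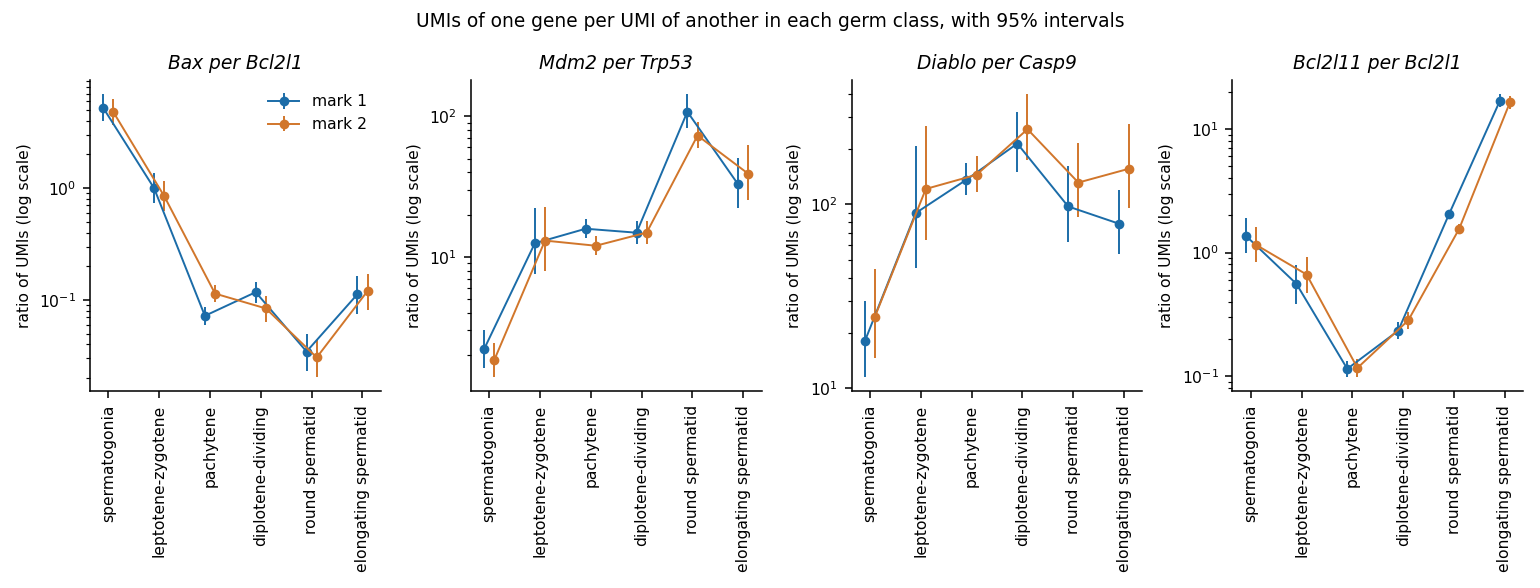
UMIs of 1 gene per UMI of another (vertical axes, log scale) in 6 germ classes in order of differentiation (horizontal axes) under each mark, with bars for 95% intervals of counting error. Bax per Bcl2l1 is highest in spermatogonia, at 5.22 and 4.79, and Bcl2l11 per Bcl2l1 in elongating spermatids, at 16.9 and 16.5.

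Calls between classes used a size rule, which asked of both marks a ratio of at least 1.5 in a shared direction. It also asked for at least 20 UMIs, summed over the marks, in the class where the gene was higher. In leptotene-zygotene spermatocytes over spermatogonia, Diablo was higher and Bax, Bid, Bcl2l11, Apaf1, Casp9 and Trp53 were lower (1 higher and 6 lower of 9). The calls of Bcl2l11 and Apaf1 were lost with the looser gate and without the deepest 1% of barcodes, those of Bcl2l11, Apaf1 and Casp9 at a 2-fold size, that of Apaf1 also with free RNA subtracted, and that of Casp9 with the stricter gate and at a minimum of 50 UMIs. Of all genes measured, 13.7% were higher and 21.7% lower. The members' median log2 ratio was -0.81 and -0.95 under mark 1 and mark 2, and that of all genes -0.00075 and -0.047. In pachytene over leptotene-zygotene spermatocytes, Bcl2l1 was higher and Bax, Bcl2l11 and Apaf1 were lower of 9, against 17.5% higher and 26% lower of all genes. The call of Bcl2l11, whose levels in both classes are read as background, was lost with free RNA subtracted and with the stricter gate, and that of Apaf1 at a minimum of 50 UMIs. The call of Bcl2l1 was lost in the first of these, with the stricter gate and at a 2-fold size. The medians there were -0.20 and 0.24 log2 for the members and -0.44 and -0.25 log2 for all genes. With TMM scaling, which aligns the typical gene and moved every ratio there by 0.30 and 0.28 log2, Diablo was also called higher, and all genes split into 26.1% higher and 21.1% lower. In round spermatids over pachytene spermatocytes, Bcl2l11 was higher, 7 members were lower and Mdm2 had no call, against 34.8% higher and 39% lower of all genes. The stricter gate, with 13 and 18 round and 17 and 16 pachytene barcodes, kept the calls of Bcl2l11, Bcl2l1 and Diablo and ended the other 5, and a minimum of 50 UMIs ended that of Apaf1. The medians there were -2.83 and -2.49 log2 for the members and -0.25 and -0.16 log2 for all genes.

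In elongating over round spermatids, Bcl2l11 was higher and Bcl2l1, Trp53 and Mdm2 were lower of 8 measured members, against 11.2% higher and 57.2% lower of all genes. The members' median was 0.015 and -0.14 log2 and that of all genes -1.0 and -1.11 log2, so a member at the same CPM in both classes stood above the typical gene. TMM scaling moved every ratio up by 1.12 and 1.19 log2. Bax, Diablo and Casp9 then joined Bcl2l11 as higher, Mdm2 stayed lower, Bcl2l1 and Trp53 had no call, and all genes split into 29.1% higher and 24.4% lower. Bax, Bcl2l1, Diablo and Casp9 were below the ungated low-UMI level in both spermatid classes under both marks. Calls of these genes compare levels below background, and the part of free RNA in them was not tested. Bcl2l11 and Mdm2 kept their calls under both scalings, but with the stricter gate Bcl2l11 was called lower. The call of Trp53 was also lost with free RNA subtracted from round spermatids and with the stricter gate, and that of Bcl2l1 with the stricter gate.

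In spermatogonia over Sertoli-like barcodes, Bax, Bid, Apaf1, Casp9 and Trp53 were higher and 0 members lower, against 39.7% higher and 29.8% lower of all genes. Bax was 11.5 times (8.65 to 15.6) and 22.3 times (14.9 to 34.6) and Trp53 4.9 times (3.03 to 8.19) and 3.59 times (2.42 to 5.4) the Sertoli-like level. The call of Casp9 was lost with the stricter gate and at a minimum of 50 UMIs. Bid had 0 and 7 UMIs in Sertoli-like barcodes under mark 1 and mark 2. When the 50 genes with the most UMIs were left out of the scaling, Bcl2l11 was also called lower, against 33% of all genes. The medians were 2.29 and 1.84 log2 for the members and 0.27 and 0.28 log2 for all genes. In pachytene spermatocytes over Sertoli-like barcodes, Bcl2l1, Diablo, Casp9 and Mdm2 were higher and Bcl2l11 lower of 9, against 35.7% higher and 26.6% lower of all genes. Bcl2l11 in pachytene spermatocytes is read as background too, so its call is not read as a difference of the cells. The call of Mdm2 was lost with the looser gate, at a 2-fold size and without the 50 genes of most UMIs in the scaling, and that of Casp9 with the stricter gate. The medians there were 0.32 and 0.86 log2 for the members and 0.22 and 0.19 log2 for all genes. In Sertoli-like barcodes only Bax and Trp53 were above the ungated low-UMI level under both marks. The levels of the other 7 members there, Bid, Apaf1 and Casp9 included, were not above background, and that of Diablo was below it.

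**Figure D4:**
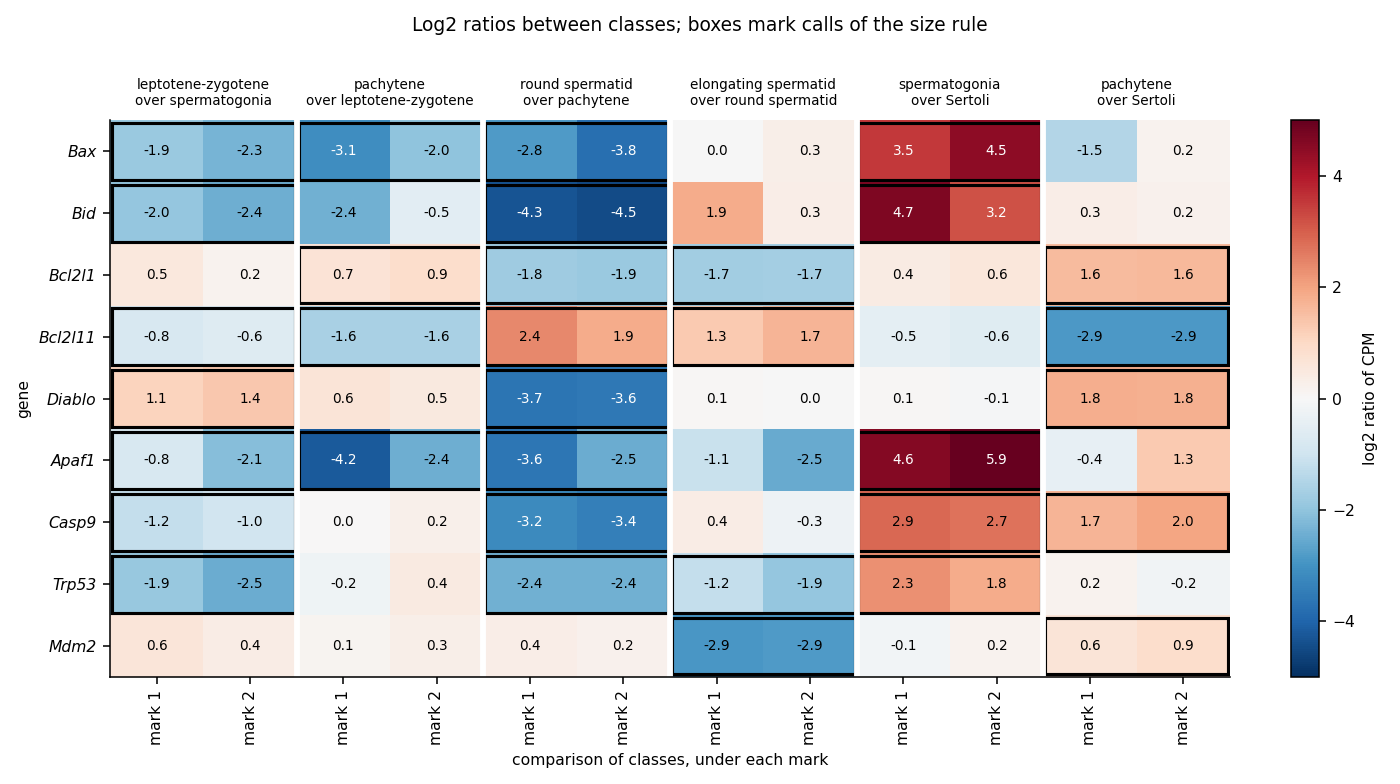
Log2 ratio of CPM for each gene (rows) in 6 comparisons of classes under each mark (columns), with boxes around calls of the size rule. In round spermatids over pachytene spermatocytes 8 genes are boxed, of which Bcl2l11 is the only one higher, and in elongating over round spermatids 4 are boxed.

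The table held 16 other genes of the BCL2 family. Their counts at 4 steps are set against 13.7%, 17.5%, 34.8% and 11.2% higher, and 21.7%, 26%, 39% and 57.2% lower, of all genes. In leptotene-zygotene spermatocytes over spermatogonia the BCL2 list had 0 higher and 2 lower of 10 measured (median -0.17 and -0.0061 log2). Bik, which encodes a BH3-only protein, stood at 3.34 and 0.552 CPM in leptotene-zygotene spermatocytes, against 19.7 and 14.1 CPM in spermatogonia. In pachytene over leptotene-zygotene spermatocytes they had 3 higher and 1 lower of 10 (median -0.72 and 0.10 log2). Bak1, which encodes the other pore-forming protein, was at 8.44 and 6.8 CPM in pachytene spermatocytes. In leptotene-zygotene spermatocytes it was at 0.668 and 3.31 CPM, on 1 and 6 UMIs. The interval of its ratio under mark 2, 0.91 to 5.7, includes equal levels. Bad, a BH3-only gene, was at 125 and 136 CPM in pachytene spermatocytes, against 51.5 and 64.6 CPM in leptotene-zygotene spermatocytes. In round spermatids over pachytene spermatocytes they had 3 higher and 6 lower of 13 (median -0.79 and -1.06 log2). Bcl2l14 was at 340.1 and 334 CPM in round spermatids, against 45.1 and 57.8 CPM in pachytene spermatocytes. In elongating over round spermatids they had 3 higher and 4 lower of 12 (median 0.23 and 0.26 log2). Bbc3, the p53-induced BH3-only gene also called Puma, was at 1.95 and 1.56 CPM in elongating spermatids, against 0.478 and 0.654 CPM in round spermatids.

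For the 11 caspases and inhibitors of apoptosis, the counts were 1 higher and 4 lower of 9 measured in leptotene-zygotene spermatocytes over spermatogonia, 1 higher and 3 lower of 8 in pachytene over leptotene-zygotene spermatocytes, 0 higher and 5 lower of 7 in round spermatids over pachytene spermatocytes and 0 higher and 6 lower of 7 in elongating over round spermatids. Of all genes measured, 21.7%, 26%, 39% and 57.2% were lower at these steps, and 13.7%, 17.5%, 34.8% and 11.2% higher. The median log2 ratios were -0.88 and -1.02, -1.94 and -1.03, -1.65 and -1.68, and -1.46 and -1.58 in the same order. Xiap, whose product inhibits caspase-9 and is bound by DIABLO, was at 0.0552 and 0 CPM in pachytene spermatocytes, against 12.7 and 9.39 CPM in leptotene-zygotene spermatocytes. In elongating over round spermatids the counts of all 5 lists together depended on the scaling, with 7 genes higher and 28 lower by CPM and 19 higher and 8 lower by TMM, where 29.1% of all genes were higher and 24.4% lower. Birc2, another inhibitor of apoptosis, was at 29.3 and 31.1 CPM in round spermatids, against 113 and 118 CPM in pachytene spermatocytes.

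For the 8 other genes of released factors and outer membrane channels, the same 4 steps gave 3 higher and 4 lower of 8, 1 higher and 2 lower of 8, 1 higher and 3 lower of 7 and 2 higher and 5 lower of 8. All genes had 13.7%, 17.5%, 34.8% and 11.2% higher and 21.7%, 26%, 39% and 57.2% lower there. The medians of the list were -0.34 and -0.63, -1.85 and -0.67, -0.79 and -1.02, and -1.46 and -1.65 log2. The somatic cytochrome c gene Cycs was at 8.49 and 11.7 CPM in pachytene spermatocytes, against 97.6 and 66.3 CPM in leptotene-zygotene spermatocytes. The testis form Cyct was at 252 and 416 CPM in leptotene-zygotene spermatocytes, against 96.6 and 93.7 CPM in spermatogonia. Vdac2, a channel of the outer membrane, was at 210.4 and 217 CPM in elongating spermatids, against 921 and 1024 CPM in round spermatids.

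For the 14 relatives and regulators of p53 in the table, the steps gave 1 higher and 3 lower of 13, 1 higher and 5 lower of 14, 2 higher and 9 lower of 14 and 0 higher and 9 lower of 13. Against these counts stood 13.7%, 17.5%, 34.8% and 11.2% higher and 21.7%, 26%, 39% and 57.2% lower of all genes. The medians of the list were -0.20 and -0.48, -1.11 and -0.44, -1.16 and -1.07, and -0.97 and -1.46 log2. Atr, a kinase of the DNA damage response, was at 316 and 283 CPM in leptotene-zygotene spermatocytes, against 106 and 96.9 CPM in spermatogonia. It was at 18.6 and 17.8 CPM in round spermatids, against 274 and 279 CPM in pachytene spermatocytes. Atm, the kinase of double-strand breaks, was at 4.14 and 3.69 CPM in pachytene spermatocytes, against 49.5 and 39.2 CPM in leptotene-zygotene spermatocytes. In spermatogonia over Sertoli-like barcodes the list had 11 higher and 0 lower of 13, with medians of 1.69 and 1.62 log2, against 0.27 and 0.28 log2 for all genes. There 39.7% of all genes were higher and 29.8% lower.

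For the 21 other p53 target genes in the table, leptotene-zygotene spermatocytes over spermatogonia gave 1 higher and 10 lower of 19 (median -1.13 and -1.04 log2). The shares of all genes were 13.7% higher and 21.7% lower. Phlda3, an inhibitor of Akt signalling, was at 1.34 and 1.1 CPM in leptotene-zygotene spermatocytes, against 25.2 and 23.7 CPM in spermatogonia. Ccng1, which encodes cyclin G1, was at 11.4 and 7.18 CPM, against 67.7 and 45.6 CPM. The later steps gave 2 higher and 7 lower of 18, 4 higher and 10 lower of 17 and 2 higher and 4 lower of 18, with medians of -0.88 and -0.65, -1.41 and -1.89, and -0.34 and -0.32 log2. All genes had 17.5%, 34.8% and 11.2% higher and 26%, 39% and 57.2% lower at these later steps. Cdkn1a, which encodes the cell cycle inhibitor p21, was at 6.55 and 4.7 CPM in elongating spermatids, against 1.5 and 1.8 CPM in round spermatids. In spermatogonia over Sertoli-like barcodes the list had 11 higher and 2 lower of 19, with medians of 1.92 and 1.55 log2. There 39.7% of all genes were higher and 29.8% lower. In pachytene spermatocytes over Sertoli-like barcodes, the BCL2, caspase, released-factor, p53 regulator and p53 target lists had 5 higher and 4 lower of 12, 3 higher and 1 lower of 7, 2 higher and 3 lower of 8, 7 higher and 0 lower of 13 and 6 higher and 7 lower of 18. Of all genes, 35.7% were higher and 26.6% lower in that comparison. Over Sertoli-like barcodes, spermatogonia had 1 higher and 3 lower of 10 of the BCL2 list, 4 higher and 1 lower of 10 of the caspase list and 3 higher and 4 lower of 8 of the released-factor list. The shares of all genes there were again 39.7% higher and 29.8% lower.

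The genes whose log2(CPM + 5) over the 12 classes was most like that of a member were looked for among 7248 genes with at least 50 CPM in a class. The classes share libraries and free RNA, so the correlations (Pearson's r in parentheses) are a description. Bax was closest to Cmpk1 (0.976), Scaf11 (0.975) and Ppp1ca (0.969), Bid to Rbm38 (0.966), Gm45716 (0.958) and Tcf3 (0.956) and Apaf1 to Pbx2 (0.987), Lcor (0.984) and Vps13c (0.978). Bcl2l1 was closest to Syt11 (0.972), Rab11fip2 (0.954) and Cryzl1 (0.951), and Diablo to Gtf2h1 (0.977), Tmed4 (0.973) and Nek2 (0.965). Bcl2l11 was closest to Oaz3 (0.962), Mex3d (0.961) and Txndc2 (0.96). Oaz3 and Tcf3 are gate markers. Casp9 was closest to Rchy1 (0.926), Esyt2 (0.924) and Tmod3 (0.905), Trp53 to Mat2b (0.95), Hp1bp3 (0.949) and Rps2 (0.943) and Mdm2 to Acp1 (0.965), Tmem107 (0.959) and Baz2b (0.958).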

How the data were processed

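Per the labels, each genotype gave 1 library of testicular cells, made with 10x 3′ reagents. The deposited table holds raw UMI counts per gene and barcode: its values are whole numbers. For the deposited counts, the notes of the submitters list Cell Ranger 1.3.1 and Seurat 3.2.2, with the build GRCm38. How barcodes were filtered before deposit was not stated there. Totals were 158740437 UMIs under mark 1 (3924 to 188645 per barcode) and 168967776 under mark 2 (3529 to 244157).

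A marker was up in a barcode at 2 times its mean over all barcodes and at least 1 UMI per 10000. A gate asked that 30% of a class's markers, and at least 3, were up. It also asked that no other class of its kind, germ or somatic, had as large a share. Germ gates also asked for 8000 UMIs, and 117 barcodes that passed a germ and a somatic gate were left out. Barcodes under 8000 UMIs could pass a somatic gate whatever their share of germ markers. Classes needed 50 barcodes, which left out the endothelial one with 14. Undifferentiated and differentiating spermatogonia were joined. Of their markers, 10 of 14 and 12 of 13 were up in that class, as were 11 of 15 in pachytene, 6 of 13 in diplotene and dividing cells, 14 of 18 in round and 12 of 15 in elongating spermatids, and 11 of 13 in Sertoli-like barcodes. UMIs were summed by class and mark and scaled to CPM. A gene counted as measured when the compared classes held 20 UMIs or more together. A gene at 0 UMIs was set at 3 counts per mark in ratios. Intervals are exact at 95%, Poisson for levels and conditional binomial for ratios. A class was above or below the ungated low-UMI barcodes where the intervals were apart under both marks. Free RNA was the profile of those barcodes, scaled to the Prm1, Prm2, Tnp1 and Tnp2 UMIs of a class, and was not subtracted from elongating spermatids. Scrublet, run with an expected share of 10%, marked 0 barcodes under mark 1 and 218 (1.42%) under mark 2. It was taken not to have worked under mark 1, and all barcodes were kept.

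The members and lists were chosen with earlier results of these data known, and the gate rule, the parts by UMIs and the search for promoter and seed matches after the counts had been seen. Besides the 9 members, up to 4 called genes per list and comparison with the largest log2 ratio could be named, of which some are printed, and the 3 genes most like each member. Bcl2l10, Hrk, Trp73 and Eda2r are not analysed here, and 1 gene of the caspase list is counted but not reported by itself. Alternatives were other scalings, gates, folds and UMI minimums, free RNA subtraction, and leaving out Scrublet calls or the deepest 1% of barcodes. Tools were Python 3.11.15, NumPy 2.4.6, SciPy 1.17.1, pandas 2.3.3, Scanpy 1.11.5, R 4.3.3 and edgeR 4.0.16 (TMM factors only).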

Additional observations from a re-analysis of the deposited data

How the results depend on the processing

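Of the counts of calls recomputed under the alternatives, 157 stayed within 1.5 times their first value and 19 did not. The cause of these moves was not tested beyond what each alternative changes by construction. With TMM scaling, 2 members were higher in pachytene over leptotene-zygotene spermatocytes, and in elongating over round spermatids 4 were higher and 1 lower, with 19 listed genes higher and 8 lower. Without the 50 genes of most UMIs in the scaling, 1 member was lower in spermatogonia over Sertoli-like barcodes. With free RNA subtracted, 2 members were higher in leptotene-zygotene spermatocytes over spermatogonia, 0 in pachytene over leptotene-zygotene spermatocytes and 4 in elongating over round spermatids, where only the round class was corrected. No such value could be had over Sertoli-like barcodes. At a 2-fold size, 3 members were lower in leptotene-zygotene spermatocytes over spermatogonia and 0 higher in pachytene over leptotene-zygotene spermatocytes. At the smaller fold tried, 2 and 2 members were higher in those comparisons and 1 was lower in spermatogonia over Sertoli-like barcodes. The looser gate gave 2 higher in pachytene over leptotene-zygotene spermatocytes.

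The stricter gate left 17 and 16 pachytene, 13 and 18 round and 16 and 18 elongating barcodes. Not every class shrank, since it put 151 and 156 barcodes in the leptotene-zygotene class, against 110 and 104 with the first gate. It gave 3 members higher in leptotene-zygotene spermatocytes over spermatogonia, 0 higher in pachytene over leptotene-zygotene spermatocytes, 2 lower in round spermatids over pachytene spermatocytes and 0 higher in elongating over round spermatids. All 13 reversed ratios came from it. For round spermatids over pachytene spermatocytes the log2 ratios were 1.10 and 0.30 for Bid, 1.51 and 1.29 for Apaf1, 2.10 and 0.30 for Casp9 and 2.10 under mark 1 for Trp53. For elongating over round spermatids they were -1.36 and -1.09 for Bcl2l11 and 0.30 and 0.99 for Trp53. The values of Bid, Apaf1, Casp9 and Trp53 had a class set at the floor of 3 counts. For pachytene over leptotene-zygotene spermatocytes they were -0.015 for Bcl2l1 under mark 1 and 0.18 for Bcl2l11 under mark 2. No paired analysis was possible because each genotype has 1 library and no label ties the barcodes to replicates. Depth limits Bid, Apaf1 and Casp9, which had 278, 234 and 639 UMIs in the whole table.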
